A study of Homo sapiens with 4 samples.

Results

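The cannabinoid receptor genes CNR1 and CNR2 and MGLL, the gene of monoacylglycerol lipase, are the 3 genes described here. They were chosen by name from a table of 1648 genes that the authors listed as changed by all-trans retinoic acid (ATRA) in HL-60 cells. The rule therefore used this same contrast, and the levels of the 3 genes are given as a description with no test. HL-60 is an established human cell line, a single line derived from the peripheral blood of a case labelled acute promyelocytic leukemia. The ATRA group was given 1 µM ATRA, dissolved in ethanol, for 4 days, and the control group an equal volume of ethanol. Both groups had their medium and their agent renewed at day 2. The assay was sequencing of poly(A) RNA, with 2 samples in each group, and whether the samples of a group came from separate cultures is not stated in the labels.

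The endocannabinoid system is a lipid signalling system. Its ligands, 2-arachidonoylglycerol and anandamide, are made from membrane lipids on demand and act on G protein-coupled receptors. CNR1 encodes the CB1 receptor, best known from neurons, while CNR2 encodes the CB2 receptor, best known from cells of the immune system. MGLL hydrolyses 2-arachidonoylglycerol to glycerol and arachidonic acid, the precursor of prostaglandins and leukotrienes.

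The table holds a mean for each group and no column for each library. The read counts of the 4 libraries were restored from those means, and each library's count was divided by its size factor to give normalised reads. The libraries are called a and b within a group, and these letters are not tied to the replicate numbers of the labels. The reads in the listed genes came to between 3288055 and 5576516 per library. Of 12265 genes tested by the authors, 13.4% were listed with an adjusted p under 0.01, made up of 8.28% higher and 5.13% lower with ATRA. All 3 genes passed that limit, which is why they could be chosen. The integrin gene ITGAM and the NADPH oxidase gene CYBB, both raised in maturing granulocytes, were 50.6-fold and 280-fold higher with ATRA. CD38, a surface enzyme that retinoic acid induces in these cells, had 1.94 and 0 normalised reads in controls and 2939 and 2820 with ATRA.

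On the GRCh37 build, CNR1 (ENSG00000118432) spans chromosome 6 from 88849583 to 88876066 on the minus strand. Its canonical transcript in GENCODE v44 has 2 exons, of which 1 is coding, and encodes 472 residues. CNR2 (ENSG00000188822) spans chromosome 1 from 24197005 to 24239852 on the minus strand, with 2 exons, 1 of them coding, and a protein of 360 residues. MGLL (ENSG00000074416) spans chromosome 3 from 127407905 to 127771033 on the minus strand, and its canonical transcript has 8 exons, all of them coding, and encodes 313 residues. No annotated gene overlapped CNR1. There were 4 annotated genes overlapping CNR2 and 4 overlapping MGLL, among them KBTBD12 and SEC61A1 on the strand opposite to MGLL. None of these overlapped an exon of a canonical transcript, and none was in the table.

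Promoter windows of RefSeq on build GRCh38.p14, from 250 bases before to 50 after a start, matched 2 of the 3 genes, all but MGLL. They are shown because the members changed in opposite directions and ATRA is a ligand of nuclear receptors that bind DNA. Letters were searched on both strands for the retinoic acid receptor half-site AGGTCA, the GATA site AGATAA, the PU.1 site GAGGAA, the RUNX site TGTGGT and the E-box CACGTG. The capitals below mark each match, 5′ to 3′ on the strand of the gene. The first and second windows were each found once on GRCh37, and there the start coincides with the start of the canonical transcript. The third lies 305 bases further upstream on GRCh37 and is the CNR1 window with AGGTCA on the gene's own strand.
CNR2, chr1:23913313-23913612, minus strand: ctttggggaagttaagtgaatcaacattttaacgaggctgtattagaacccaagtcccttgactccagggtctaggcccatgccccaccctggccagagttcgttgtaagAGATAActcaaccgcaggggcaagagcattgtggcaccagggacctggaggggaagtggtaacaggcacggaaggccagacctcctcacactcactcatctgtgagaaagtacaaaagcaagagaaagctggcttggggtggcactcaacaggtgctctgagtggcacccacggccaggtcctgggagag
CNR1, chr6:88166298-88166597, minus strand: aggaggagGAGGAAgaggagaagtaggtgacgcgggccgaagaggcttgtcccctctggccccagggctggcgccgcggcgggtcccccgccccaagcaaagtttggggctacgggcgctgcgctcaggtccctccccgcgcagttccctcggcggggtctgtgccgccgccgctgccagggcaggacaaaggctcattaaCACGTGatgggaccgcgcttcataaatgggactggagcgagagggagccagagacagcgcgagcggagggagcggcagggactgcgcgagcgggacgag
CNR1, chr6:88166603-88166902, minus strand: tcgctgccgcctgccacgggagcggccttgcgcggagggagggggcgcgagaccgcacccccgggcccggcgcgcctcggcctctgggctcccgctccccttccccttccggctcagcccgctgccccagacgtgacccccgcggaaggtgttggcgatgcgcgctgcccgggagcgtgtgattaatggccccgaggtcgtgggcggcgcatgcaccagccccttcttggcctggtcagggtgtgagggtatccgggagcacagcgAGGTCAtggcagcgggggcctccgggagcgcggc

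The CNR2 window held AGATAA at bases 111 to 116 and none of the other letters searched. The CNR1 window at the canonical start held GAGGAA at bases 9 to 14 and CACGTG at bases 202 to 207. The upstream CNR1 window held AGGTCA at bases 267 to 272, after the start. CNR1 has 6 windows in all, and of the other 4, the window at chr6:88167300-88167599 held AGATAA and the window at chr6:88145288-88145587 held AGGTCA on the opposite strand. Of 35116 windows of this length, 13.8% held AGGTCA, 10.3% held AGATAA, 27.9% held GAGGAA, 13.1% held TGTGGT and 7.26% held CACGTG. These shares are for a single window, whereas 6 windows of CNR1 were searched, so a match in any of them is more likely. These matches are of letters only and do not show a bound site.

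To determine how the receptors and the lipase differed between control and ATRA-treated cells, the 4 libraries were set side by side. CNR1 was nearly absent from control cells and clearly present after ATRA, whereas CNR2 and MGLL were lower after ATRA. Because bulk RNA was measured, fewer cells expressing a gene and less RNA per cell cannot be told apart.

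The receptor CNR1 had 2 reads in control library a and 0 in control library b, against 256 and 190 reads in ATRA libraries a and b. In normalised reads these were 1.94 and 0 in controls and 233 and 189 with ATRA. Both ATRA libraries were far above both controls, and the ATRA libraries differed from each other by only 1.23-fold. The means were 0.972 ± 1.38 in controls and 211 ± 30.7 with ATRA (SD, n = 2), a ratio of 217-fold and a log2 fold change of 7.76. With 2 reads in the control group, the 95% counting interval of the ratio ran from 56.2 to 1690. This interval covers counting error at most, and may be too narrow for that, since reads amplified by PCR are not independent molecules. It pools the libraries of each group and leaves out the variation between them. The counts came from the program RSEM, which estimates them, so they may be rounded estimates, which the interval also leaves out. Between the closest pair of libraries the ratio was still 97.4-fold. The ratio was 109-fold without control library b, and at least 5.98 on the log2 scale without control library a, taking a floor of 3 reads over the group. CNR1 ranked 38 among the 1018 listed genes that were higher, where the median log2 fold change was 1.87. Few or no reads in controls were not peculiar to it, as 44 of the 1018 had at most 2 control reads and 18 had 0.

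The receptor CNR2 had 700.1 and 763 normalised reads in control libraries a and b, and 230.2 and 94.7 in ATRA libraries a and b. The controls were close together, while ATRA library a held 2.43 times the level of ATRA library b. The means were 732 ± 44.6 in controls and 162 ± 95.8 with ATRA (SD, n = 2), which is 4.50-fold lower and a log2 fold change of -2.17. The groups did not overlap, and the ratio of single libraries lay between 3.04-fold and 8.06-fold lower. Without ATRA library a the gene was 7.72-fold lower, and without ATRA library b it was 3.18-fold lower. CNR2 ranked 159 among the 630 listed genes that were lower, where the median log2 fold change was -1.47.

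The lipase MGLL had 381 and 342 normalised reads in control libraries a and b, and 81.0 and 24.9 in ATRA libraries a and b. Again the controls lay close together and ATRA library a was the higher of the ATRA libraries, by 3.25-fold. The means were 362 ± 27.8 in controls and 53.0 ± 39.6 with ATRA (SD, n = 2), which is 6.83-fold lower and a log2 fold change of -2.77. The 2 ATRA libraries were both below both controls, by between 4.22-fold and 15.3-fold. Without ATRA library a the gene was 14.5-fold lower, and without ATRA library b it was 4.46-fold lower. MGLL ranked 96 among the 630 lower genes. Between the group means all 3 genes changed by over 4-fold, as did 28.9% of listed genes in the higher direction and 11.2% in the lower direction.

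**Figure D1:**
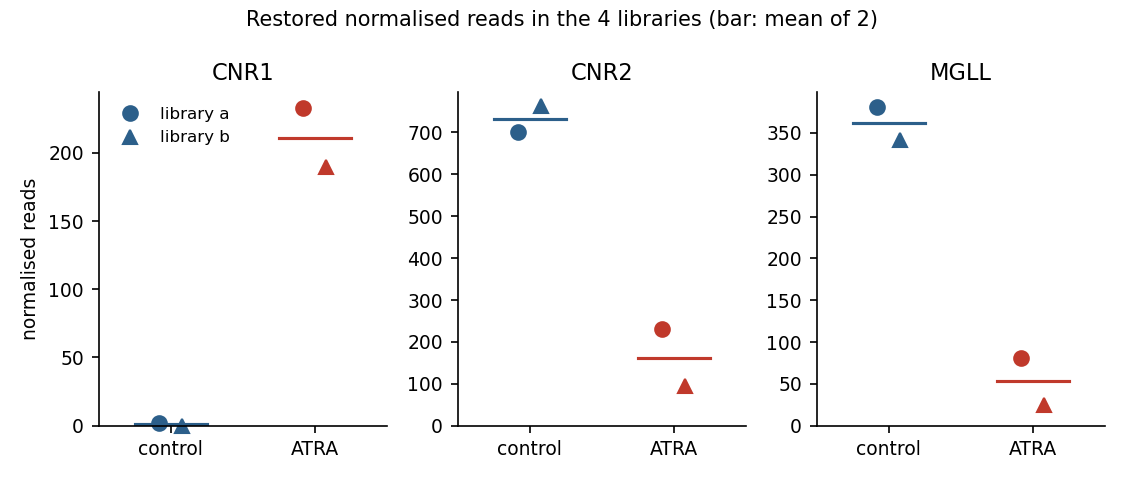
Normalised reads (vertical axis) of CNR1, CNR2 and MGLL in the control and ATRA libraries, where circles are library a, triangles are library b and bars are the means of 2. CNR1 sits at 1.94 and 0 in controls and at 233 and 189 with ATRA, while CNR2 and MGLL are lower in both ATRA libraries than in either control.

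**Figure D2:**
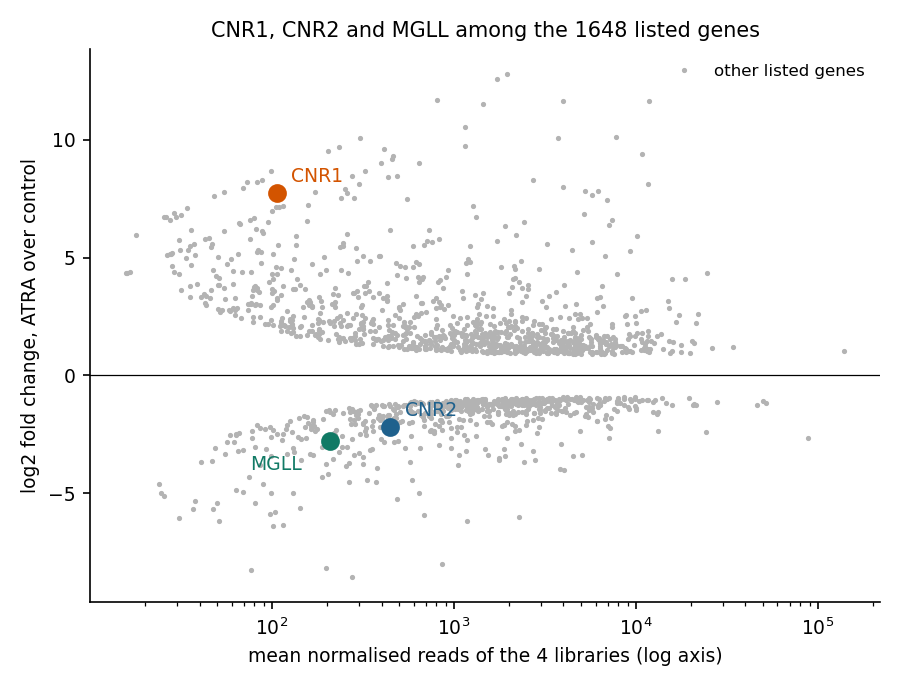
Log2 fold change, ATRA over control (vertical axis), against the mean normalised reads of the 4 libraries (log axis) for the 1648 listed genes, with the 3 genes in colour. CNR1, at 7.76, lies among the larger increases of low-abundance genes, and CNR2 and MGLL, at -2.17 and -2.77, lie within the spread of the lower genes.

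For each of the 3 genes, both libraries of one group lay on the same side of both libraries of the other. The same held for 100% of the 1648 listed genes, which had been selected for a difference, so nothing is read from it.

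The distance between the ATRA libraries set CNR2 and MGLL apart from most lower genes. The median absolute log2 ratio of ATRA library a over b was 0.27 among the 630 lower genes. Of these 630, 31 had a larger gap than CNR2 and 14 a larger gap than MGLL. Library a was not higher throughout, as it exceeded library b in 42.7% of the lower genes. Among the 208 lower genes with an ATRA mean from 20 to 400 normalised reads, library a was the higher in 116 (55.8%). In these 208, a gap in the same direction of at least the size of that of CNR2 was seen in 15. One of at least the size of that of MGLL was seen in 4, each count including the gene itself. For CNR1 the gap was ordinary, with 370 of the 1018 higher genes having a larger one.

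**Figure D3:**
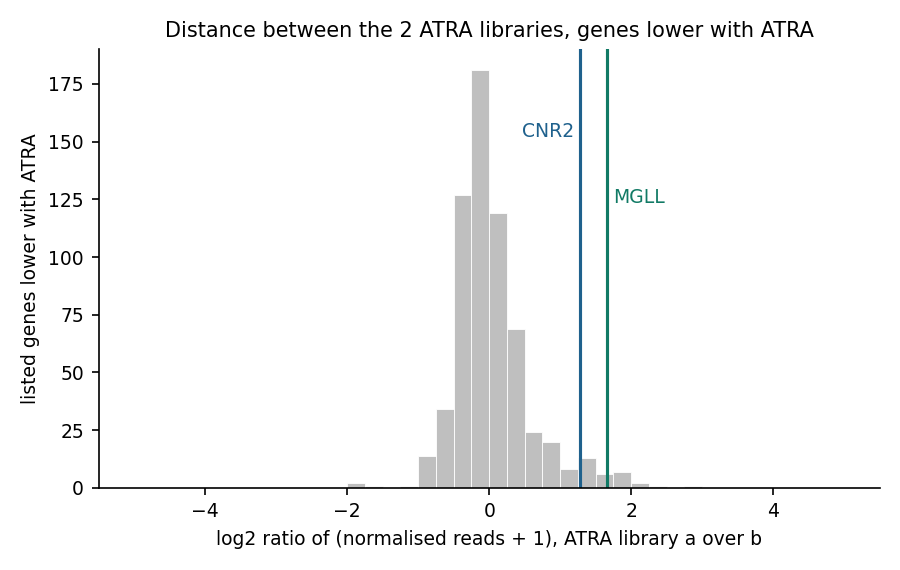
Number of listed genes lower with ATRA (vertical axis) by the log2 ratio of normalised reads plus 1 in ATRA library a over ATRA library b (horizontal axis), with lines at CNR2 and MGLL. Most of the 630 genes lie near 0, and both lines stand in the right tail, where ATRA library a is the higher one.

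Divided by the exon length of the canonical transcript, the levels of the 3 genes could be ordered within each group. In controls, CNR2 stood at 139 ± 8.47 normalised reads per kb, MGLL at 84.7 ± 6.50 and CNR1 at 0.162 ± 0.228 (SD, n = 2), and no library of one gene overlapped those of another. With ATRA, CNR1 stood at 35.1 ± 5.10 per kb, CNR2 at 30.9 ± 18.2 and MGLL at 12.4 ± 9.28. The CNR1 libraries, at 38.7 and 31.5 per kb, lay between the CNR2 libraries, at 43.7 and 18.0 per kb. These receptors therefore did not differ beyond their spread with ATRA. The higher MGLL library, at 18.96 per kb, also lay above the lower CNR2 library, so that only CNR1 and MGLL were apart. The lengths assume that the canonical transcript is the one expressed, and GENCODE lists 7 transcripts of CNR1, 1 of CNR2 and 13 of MGLL.

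The balance between the receptor genes moved from nearly all CNR2 to a mixture. CNR1 gave 2 of the 722 reads of both receptors in control library a, which is 0.277%, with an exact Clopper-Pearson 95% interval from 0.0336% to 0.997%. In control library b it gave 0 of 683, for which the same interval reaches 0.539%, and a floor of 3 reads allows a share of up to 0.439%. With ATRA it gave 256 of 509 reads in library a, or 50.3% (45.9% to 54.7%), and 190 of 285 in library b, or 66.7% (60.9% to 72.1%). The share was higher in ATRA library b, where CNR2 was the lower of the pair. These intervals cover counting error only and are no test between samples.

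The rest of the endocannabinoid pathway was examined from a list of 50 genes by role. Of these, 13 were in the table, 10 higher and 3 lower with ATRA, which is 26.0% of the list beside 13.4% of all genes tested. The 3 genes described above are among the 13, and without them 10 of 47 (21.3%) were in the table. Genes on this list and on the later lists may not all have been tested by the authors. The lists were chosen with earlier results of these data known. The median log2 fold change of the 13 was 1.51, beside 1.23 over all listed genes.

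Among 8 receptors, the third in the table was PPARA, a nuclear receptor for fatty acids and their ethanolamides. PPARA had 541 and 974 normalised reads in controls and 2003 and 2163 with ATRA, which is 2.75-fold higher. The other receptors on the list, GPR55, GPR18, GPR119, TRPV1 and PPARG, had no row in the table, nor did the CB1-binding proteins CNRIP1 and SGIP1. For a gene with no row, the adjusted p was 0.01 or more or no test was made, and no level can be given.

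Of the 6 degrading enzymes, FAAH was the only other one in the table. FAAH, the amidase that hydrolyses anandamide, had 47.6 and 39.1 normalised reads in controls and 234 and 148 with ATRA. It was 4.40-fold higher (43.4 ± 6.04 against 191 ± 61.0, SD, n = 2), the opposite direction to MGLL. The other hydrolases of 2-arachidonoylglycerol on the list, ABHD6 and ABHD12, and FAAH2 and NAAA had no row. On the side of synthesis, 2 of 10 genes were in the table. PLCB2, a phospholipase C that yields diacylglycerol, was 6.12-fold higher, and PTPN22, a tyrosine phosphatase, was 2.84-fold higher. The diacylglycerol lipases DAGLA and DAGLB and the phospholipase D NAPEPLD had no row, and neither did any of 5 carriers.

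Downstream of the receptors, 2 of 4 G protein alpha subunits of the inhibitory class were in the table, both higher. GNAI1 was 6.51-fold higher. GNAI2 was 2.05-fold higher, a direction that turned to a log2 fold change of -0.12 with median-of-ratios factors computed over the listed genes alone. Of 6 arrestins and receptor kinases, the arrestin ARRB1 was 6.88-fold higher and ARRB2 was 2.08-fold higher, and ARRB2 turned to -0.09 under the same factors. Those factors moved the log2 fold change of all listed genes by -1.15, because they rest on selected genes. Adenylyl cyclases, the enzymes that such G proteins inhibit, were split. ADCY4 was 10.9-fold higher and ADCY3 was 2.42-fold lower, and the other 7 of the 9 had no row.

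Arachidonic acid, the product of MGLL, feeds the enzymes of the eicosanoid pathway, and 6 of 31 genes on that list were in the table, all 6 of them higher. This is 19.4% of the list. Beside this, 13.4% of all genes tested were listed in either direction, and 8.28% were listed as higher. The median log2 fold change of these 6 was 3.26. In the cyclooxygenase branch PTGS1, or COX-1, was 4.55-fold higher and the thromboxane synthase TBXAS1 was 5.30-fold higher. The prostaglandin E synthase PTGES had 0 reads in both controls and 737 and 1079 normalised reads with ATRA. It was at least 582-fold higher, taking a floor of 3 reads over the control group. In the lipoxygenase branch ALOX5AP, the protein that presents arachidonic acid to 5-lipoxygenase, was 17.2-fold higher. CYP4F3, which inactivates leukotriene B4, was 1098-fold higher, from 5.83 and 7.82 normalised reads to 8358 and 6637. MBOAT7, which returns arachidonic acid to phosphatidylinositol, was 2.98-fold higher. None of the 5 phospholipases A2 on the list had a row. This list and the list of synthesis genes above are not complete. PLB1, a phospholipase off them, was higher, at a log2 fold change of 2.26. RARRES3, named below and also reported to act as a phospholipase, was higher at 8.22.

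Of 33 other receptors for lipids, 6 (18.2%, beside 13.4% of all genes tested) were in the table, 5 higher and 1 lower, with a median log2 fold change of 1.51. Of all listed genes, 61.8% were higher. The leukotriene receptors LTB4R, CYSLTR1 and CYSLTR2 were 4.77-fold, 3.42-fold and 13.0-fold higher. LPAR2, a receptor for lysophosphatidic acid, was 2.38-fold higher, and GPR132 was 2.24-fold higher. The prostaglandin E2 receptor PTGER4 was 3.53-fold lower. This list is not complete. GPR34 and PPARD, also reported to respond to lipids, are not on it and were higher, at log2 fold changes of 5.78 and 2.65. Of 27 genes of neutral lipid turnover, 3 (11.1%) were in the table, with a median of -1.50. The lipoprotein lipase LPL was 2.84-fold lower and the acyltransferase DGAT2, which makes triacylglycerol, was 2.82-fold lower, while the lipid droplet protein PLIN5 was 31.2-fold higher. Of the 25 listed genes of these lists other than the 3 members, 21 were higher and 4 lower. Leaving out any 1 library moved none of the 24 with control reads by over 1.5 times. The bound of PTGES fell to at least 271-fold without control library a and 311-fold without control library b, because the floor of 3 reads then rests on 1 library.

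**Figure D4:**
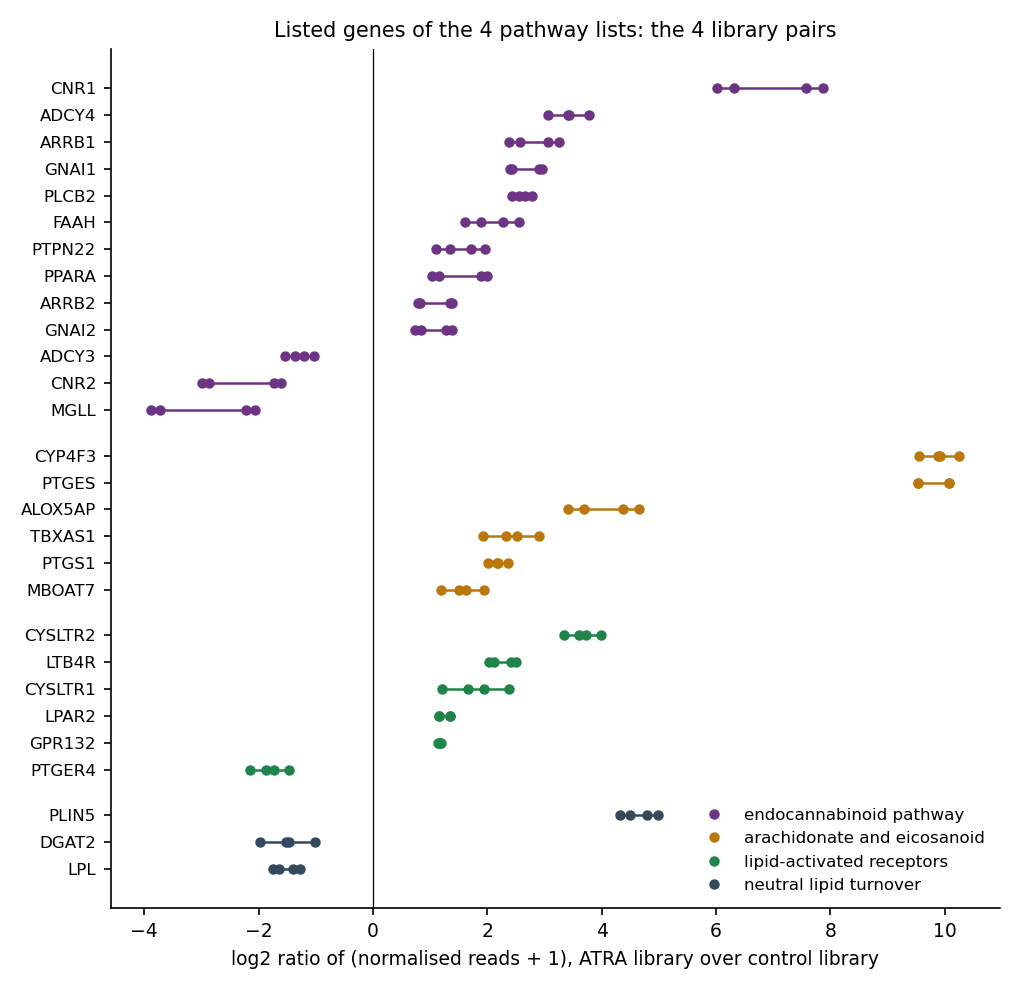
Log2 ratio of normalised reads plus 1 (horizontal axis) for each of the 4 pairs of an ATRA and a control library (points), in the 28 listed genes of the 4 pathway lists, by list (colour). CNR2 and MGLL have wide spreads to the left of 0, CNR1 stands furthest to the right in its list, and no gene crosses 0.

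The cells to which CNR1 and CNR2 are best known were checked by markers. None of 8 B cell markers and none of 9 neuron markers had a row in the table, so their levels were not analysed here. Of 13 markers of eosinophils, basophils and mast cells, 4 were in the table, all lower with ATRA, with a median log2 fold change of -2.89. One of these, PRG2, had not passed the authors' limit. The 4 markers, with PRG2, are 30.8% of the list. Beside this, 13.4% of all genes tested were listed in either direction and 5.13% were listed as lower, both counts without PRG2. The summed level of the 4 markers was 215034 and 93814 normalised reads in control libraries a and b. It was 38229 and 10773 in ATRA libraries a and b. This sum, which is nearly all PRG2, differed between the ATRA libraries in the same direction as CNR2 and MGLL. Library a exceeded library b by 3.58-fold for PRG2, by 2.998-fold for SIGLEC8 and by 1.35-fold for IL5RA, and CPA3 was at 0 in ATRA library b. In control libraries a and b, PRG2 had 213827 and 91701 normalised reads and IL5RA had 1008 and 1919. Such distances between controls were not seen for CNR2 and MGLL, nor for SIGLEC8 and CPA3. The marker list is not complete, and genes of such cells that are off it went the other way. CCR3, a chemokine receptor of eosinophils and basophils, had 1.94 and 10.1 normalised reads in controls and 927 and 1257 with ATRA. MILR1, a receptor of mast cells, was also higher, at a log2 fold change of 5.55. The part of eosinophils, basophils and mast cells in the levels of CNR2 and MGLL was not tested.

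Of 11 monocyte and macrophage markers, 5 were in the table, all higher, with sums of 5942 and 3561 normalised reads in controls and 18548 and 15415 with ATRA. Most of the sum was CD4, and CSF1R, CLEC7A, VSIG4 and CD68 were the others, while CD14 and CD163 had no row. This list is not complete either, and genes of such cells that are off it went both ways. C1QA had 438 and 296 normalised reads in controls and 31.8 and 22.9 with ATRA. SERPINB2 was also lower, at a log2 fold change of -4.19, while MPEG1, described below, was higher. Of 10 neutrophil markers, 4 were in the table, all higher, with sums of 2562 and 2770 in controls and 43919 and 42757 with ATRA. The ATRA sums were mostly CYBB and ITGAM. CSF3R was 5.51-fold higher, and CXCR2 had 1181 and 1188 normalised reads in controls and 2147 and 2597 with ATRA. The neutrophil list is also not complete, and genes of neutrophil granules that are off it went both ways. PRSS57, a serine protease, had 605 and 492 normalised reads in controls and 33.7 and 77.8 with ATRA. BPI was higher, at a log2 fold change of 3.96. The 9 monocyte, macrophage and neutrophil markers in the table were all higher, and the other 12 have no level here. Beside this, 13.4% of all genes tested were listed, and 8.28% were listed as higher. The part of such cells in the level of CNR1 was not tested.

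The listed genes most like each member in pattern were found by Euclidean distance over the 4 libraries, on log2(normalised reads + 1) centred on each gene's mean. The distance is a description over 4 libraries, which all genes share. Nearest to CNR1 were PPFIA4 (distance 0.25), a scaffold protein of the liprin family, MPEG1 (0.45), a pore-forming protein of macrophages, RARRES3 (0.51), a retinoid-responsive gene, SCARF2 (0.57), a scavenger receptor family member, and ITGB2-AS1 (0.71), an antisense transcript of ITGB2. Whether counting used strand is not stated, so reads of ITGB2-AS1 and ITGB2 may not be separable. MPEG1 had levels much like those of CNR1, with 0.972 and 0 normalised reads in controls and 215 and 179 with ATRA.

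Nearest to CNR2 were ZFYVE28 (0.22), KLF11 (0.25), a zinc finger transcription factor, LAT (0.35), an adaptor of T cell receptor signalling, NTN1 (0.37), which encodes netrin-1, and RHOH (0.40), a small GTPase of blood cells. Each of these was between 3.65-fold and 5.58-fold lower, with ATRA library a above library b. Nearest to MGLL were SIGLEC8 (0.15), an inhibitory receptor of eosinophils and mast cells, LAX1 (0.31), an adaptor of lymphocytes, KIF5C (0.37), a kinesin motor, BATF3 (0.41), a transcription factor of the AP-1 family, and BEND6 (0.45). SIGLEC8 had 104 and 93.9 normalised reads in controls and 20.9 and 6.98 with ATRA. CNR2 and MGLL were 0.75 apart, and MGLL was the 34th nearest gene to CNR2. CNR1 was 9.34 from CNR2 and 10.0 from MGLL.

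**Figure D5:**
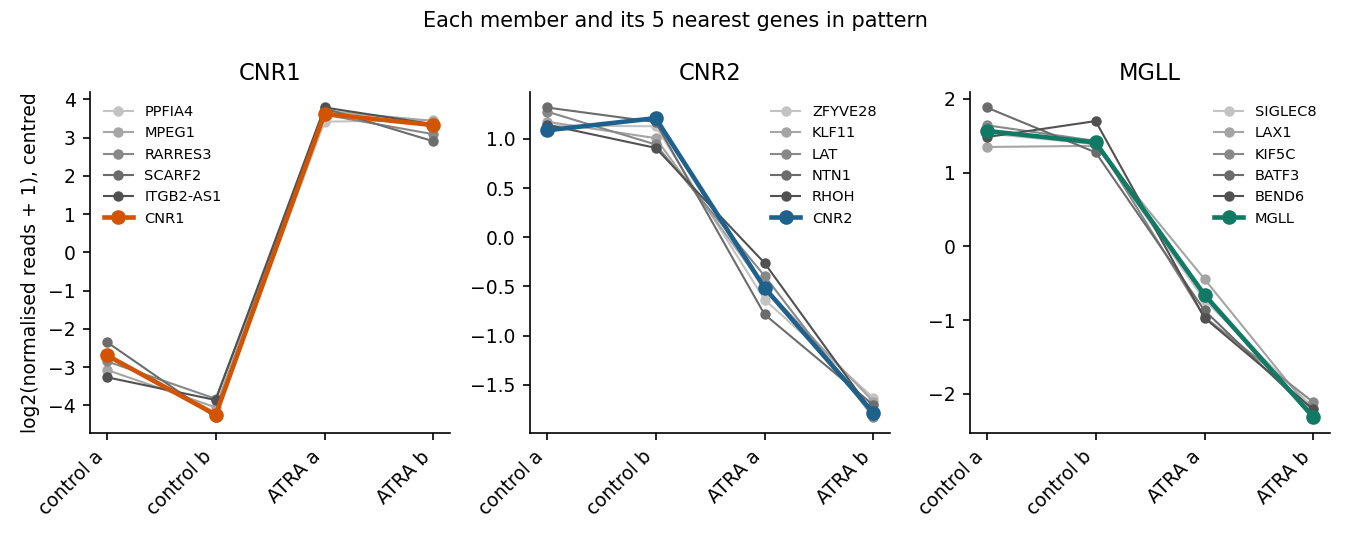
Log2(normalised reads + 1) centred on each gene's mean (vertical axis) in the 4 libraries (horizontal axis) for each member, in colour, and its 5 nearest listed genes, in grey, with lines joining the values of a gene. The CNR1 group is low in both controls and high in both ATRA libraries, and the CNR2 and MGLL groups are lower with ATRA and lowest in ATRA library b.

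Neighbours of the members on the chromosome were taken as all listed genes within 1 Mb of each member on GRCh37, a window set after their values were known. There were 7 listed genes beside 66 protein-coding genes in the windows of the 3 members, or 10.6%, near the 13.4% of all genes tested. CNR1 had 1 such gene beside 15 protein-coding genes in the window, namely PM20D2, at a log2 fold change of -0.94. CNR2 had 3 beside 32. The nearest was FUCA1, a lysosomal fucosidase on the same strand, 2.23 kb from CNR2, and it was 8.80-fold higher with ATRA (485 ± 6.40 against 4266 ± 522, SD, n = 2), the opposite direction to CNR2. The others were CLIC4, 2.51-fold lower, and RUNX3, 3.12-fold higher. MGLL had 3 beside 19. ABTB1 lies 8.14 kb away and was 8.14-fold higher (114 ± 29.6 against 930.1 ± 279, SD, n = 2), while EEFSEC was 2.18-fold lower. GATA2, a transcription factor of blood progenitors, lies 427 kb away and was 16.2-fold lower, the same direction as MGLL.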

How the data were processed

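The submitters' processing notes and the methods of the study state that adapters were removed with cutadapt, ribosomal reads were filtered with Bowtie, reads were quantified with RSEM 1.2.7 on hg19 (GRCh37) and groups were compared with DESeq2 1.4.5. The signal deposited by the authors is 3 columns of mean size-factor-normalised counts, over all libraries and over each group. The authors' deposited fold change, log2 fold change and p-value columns hold their comparison and were not used, except that the adjusted p-value gave the limit of selection and the 12265 genes tested. The table holds all 1645 genes under 0.01 plus 3 others.

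No digit 0 occurs among the 73360 digits of the means, and 20.2% are 1. Every 0 was therefore taken to be written as 1, and whole read counts were searched that give back the printed means. Exactly 1 solution was found for each of the 1648 genes, and it gave back the mean over all libraries in 1648 rows. ATRA libraries a and b had size factors of 1.10 and 1.00, and control libraries a and b of 1.03 and 0.895. The search was tested on simulated data. Restoring moved 430 log2 fold changes by over 0.01. The name of 1 row is a date, and it is not named here.

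Each group is given as mean ± SD (n = 2), and a fold change is the ratio of the group means. No count model was fitted, since unchanged genes are not analysed here. The text names the 3 members, every listed gene of the 4 pathway lists and of the marker lists, and the 5 nearest genes of each member. It also names core pathway genes with no row and the listed genes within 1 Mb of a member (added after their values were seen). ITGAM, CYBB and CD38 are named as a check of the label. CCR3, MILR1, C1QA, SERPINB2, PRSS57, BPI, PLB1, GPR34 and PPARD are genes off the lists, also added after their values were seen. The members and lists were chosen with earlier results of these data known. Alternatives were the means as printed, other scalings, pseudocounts, a 4-fold limit, a minimum of 10 normalised reads and leaving out each library. Work was done with Python 3.11.15, numpy 2.4.6, pandas 2.3.3, scipy 1.17.1 and matplotlib 3.10.9.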

Additional observations from a re-analysis of the deposited data

How the results depend on the processing

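No paired analysis was possible because the restored libraries carry no replicate numbers. Leaving out 1 library at a time kept the direction of CNR1, CNR2 and MGLL, with log2 fold changes from 5.98 to 7.90, from -2.95 to -1.67 and from -3.86 to -2.16. The lowest CNR1 value is a bound set by 0 reads in control library b. With median-of-ratios factors over the listed genes CNR1 was 6.57, CNR2 was -3.33 and MGLL was -3.94, beside a shift of all genes by -1.15 that turned 143 of 1629 directions. Scaling by the total reads of the listed genes shifted all genes by -0.44, turned 0 directions and gave 7.32, -2.62 and -3.22. With the means as printed CNR1 was 6.74, since its control mean is printed with 1 for 0. A limit of 4-fold by construction left 6 higher endocannabinoid genes of 10, 2 higher and 0 lower lipid receptor genes of 5 and 1, and 0 lower neutral lipid genes of 2. Of the 15 nearest genes, 7 were shared with the scaling by total reads and 14 with a pseudocount of 0.5, and the cause was not tested. With 2 libraries a group and 2 control reads, the size of the CNR1 ratio is limited by depth, as its counting interval shows.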
